A study of Mus musculus with 2 samples.

Results

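Long non-coding RNAs (lncRNAs) were examined in 2 RNA sequencing libraries from mouse tumours, one labelled FuOXP NP and the other Empty NP. The set held 9 RNAs chosen by name from 26601 named genes: Malat1, Neat1, Eyelinc18, Gas5, Snhg1, Kcnq1ot1, H19, Meg3 and Pvt1. Each had 1 row in the table. The tumours grew from CT26, a colon carcinoma line of the BALB/c strain, under the skin of BALB/c mice labelled WT, and stood at about 200 mm3 when treatment began. FuOXP NP mice received nanoparticles with FuOXP, a conjugate of 5-fluorouracil and oxaliplatin, at 10 mg/kg into a vein. Empty NP mice received the particles without the drug. Both groups had 3 injections, 5 days apart, and the tumours were taken 24 hours after the last. The labels give 3 mice, but the table holds 1 column per group and no source used here says whether mice were pooled. No source used here gives the age of the mice. There was no replicate, so no difference below has a test, and higher and lower describe these libraries only. In bulk tumour RNA, fewer cells of a type and less RNA per cell cannot be told apart.

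Long non-coding RNAs are transcribed and often spliced like messenger RNAs but encode no known protein. Some stay in the nucleus, where Malat1 gathers in nuclear speckles, domains rich in splicing factors, and Neat1 is the scaffold of paraspeckles, which hold RNA-binding proteins. Others, such as Gas5 and Snhg1, carry small nucleolar RNAs (snoRNAs), guides for ribosomal RNA modification, in their introns. H19, Meg3 and Kcnq1ot1 come from imprinted loci, where only the maternal or only the paternal copy is transcribed.

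The nuclear-retained RNAs share a feature of their sequence that the choice of members did not use. Malat1 and the long isoform of Neat1 end without the usual poly(A) tail. In these a genome-encoded stretch of A near the 3′ end folds back on U-rich stretches into a triple helix that protects the end. The stretches shown next carry that feature. They come from GENCODE vM21 transcripts on GRCm38. A search for the longest word that both transcripts hold with its reverse complement at most 100 bases downstream gave 1 word of 10 bases, TTTTGCTTTT with AAAAGCAAAA, and both are in capitals, as DNA letters on the transcript strand, which is the minus strand of chromosome 19 for both. The Malat1 stretch is chr19:5795982-5796067 and the Neat1 stretch is chr19:5824708-5824800.
Malat1: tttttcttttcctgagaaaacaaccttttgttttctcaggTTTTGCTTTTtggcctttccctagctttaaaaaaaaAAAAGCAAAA
Neat1: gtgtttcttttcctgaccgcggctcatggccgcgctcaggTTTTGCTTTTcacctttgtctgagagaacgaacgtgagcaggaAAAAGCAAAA
The motifs lie 26 bases apart in Malat1 and 33 bases apart in Neat1. The same pair was found in 2 of 10155 lncRNA genes, which are Malat1 and Neat1 themselves, or 0.0197%, and in 3 of 55450 genes of all kinds, or 0.00541%. In consecutive windows of 150 bases over the lncRNA transcripts the share was 0.000824%. Because the words are reverse complements of each other, the search covers both strands. It was built on these RNAs with their ends known to be alike, so the match is a description.

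The snoRNA hosts differ in kind. They are often counted in a class of transcripts that begin with a run of pyrimidines, as ribosomal protein messenger RNAs do. Their first bases are shown for that reason. RefSeq (GRCm38.p6) gives 1 start for Snhg1, at chr19:8723487-8723516 on the plus strand, and a start for Gas5 at chr1:161035166-161035195 on the plus strand, besides another further upstream that begins with no such run. Capitals mark the pyrimidines (C or T) before the first purine.
Gas5: CTTTCggagctgtgcggcattctgagcagg
Snhg1: CTCatttttccttgttcggggtaagtactc
A C followed by further pyrimidines, in a run of at least 5, opened 2.51% of 32851 RefSeq starts, and in a run of at least 3 opened 5.81%. These lengths are the runs of the Gas5 and Snhg1 starts shown. The Gas5 start was picked for its run and the Snhg1 run is short, so these starts do not by themselves place either RNA in the class.

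Values were TPM, relative transcript levels that scale each RNA by its length and by its library. The column summed to 1000649 TPM in FuOXP NP and 1001107 TPM in Empty NP. The 20 most abundant rows held 81.8% of the sum in FuOXP NP and 47.3% in Empty NP, which leaves less for every other RNA. The median named gene was 2.71-fold lower in FuOXP NP, a difference of -1.44 in log2(TPM + 1), over the 9488 whose mean reached 1 TPM. Differences are therefore also given after subtracting this median, as centred differences. Low TPM values lay on steps of whole reads, 1.91 TPM in FuOXP NP and 3.56 TPM in Empty NP for 1 read on 1000 exon bases. These gave 935293 reads in FuOXP NP and 448410 in Empty NP for genes of annotated length, far below the 73 M to 77 M that the labels state. The median gene above 0 had 4 reads in FuOXP NP and 6 reads in Empty NP. Ranges in parentheses after a fold are exact Clopper-Pearson intervals at 95%, computed on these reads, and cover counting error only. Ratios are set against the typical gene, the median of 1431 genes with at least 50 reads, which was 3.19-fold lower in FuOXP NP without a pseudocount. Of 10 epithelial and intestinal markers of colon carcinoma, 6 were listed at 0 in both libraries, among them Epcam, Cdh1 and Cdx2, and the list summed to 3.96 TPM in FuOXP NP and 8.09 TPM in Empty NP. Fibroblast markers had a median centred difference of 0.86 over 8 measured genes, white blood cell markers 0.34 over 8 and endothelial markers -0.27 over 3. Each list was split: 5 above and 3 below the median named gene for fibroblasts, 6 and 2 for white blood cells, 1 and 2 for endothelium. Of the 5 fibroblast genes above, Lum, Pdgfra, Pdgfrb and Thy1 had at most 5 reads per library. Col1a1 lay below, at -1.22.

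The set was less abundant than its working name of abundant lncRNAs says. Only Eyelinc18 and Malat1 averaged 10 TPM or more over the libraries, and 6 of the 9 averaged under 5 TPM. Eyelinc18 alone made up 4.84% of the FuOXP NP total and 4.79% of the Empty NP total. The other 8 together summed to 41.8 TPM in FuOXP NP and 240.4 TPM in Empty NP, of which Malat1 gave most. As deposited, 6 members were lower in FuOXP NP, Eyelinc18 and Snhg1 were higher, and Meg3 was listed at 0 in both. By their counting intervals Malat1, Neat1 and Kcnq1ot1 were lower by more than the typical gene, and Snhg1 was the member that stood highest relative to it. Of 3276 genes with at least 20 reads, 16.9% lay wholly below the typical gene and 14.2% wholly above it. Snhg1, on 7 and 2 reads, is under that limit.

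**Figure D1:**
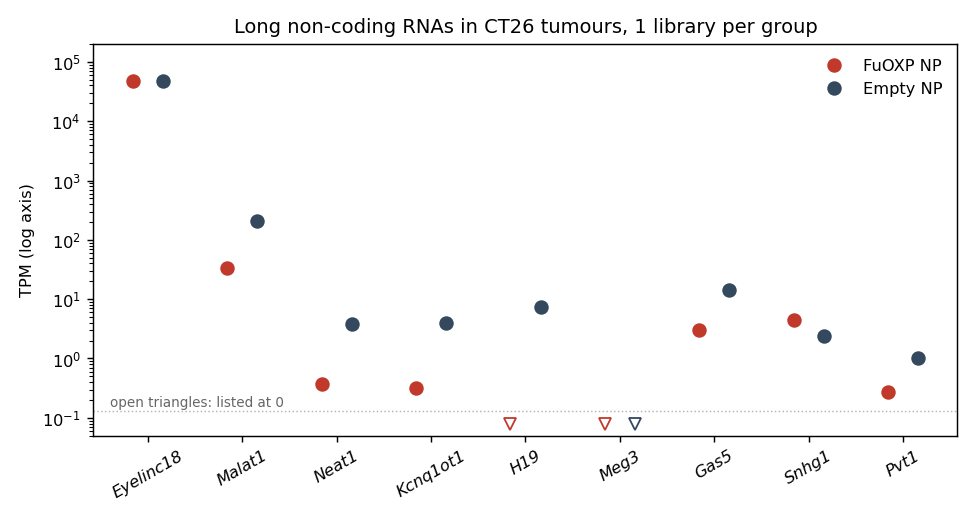
TPM of the 9 RNAs (log axis) in the FuOXP NP library (left point of each pair) and the Empty NP library (right point), with open triangles for values listed at 0. Eyelinc18 lies at 48431 TPM in FuOXP NP and 47911 TPM in Empty NP, Malat1 at 33.3 TPM in FuOXP NP and 207.6 TPM in Empty NP, and the other 7 lie under 15 TPM.

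Of the 7 members that passed the filter at a mean of 1 TPM, 2 lay at least 2-fold above the median named gene, as did 12.6% of the 9488 genes, and 2 lay at least 2-fold below it, as did 12.2%. The pair above was Eyelinc18 and Snhg1 and the pair below was Malat1 and H19. Which members lay 2-fold below depended on the pseudocount: with 0.1 TPM they were Neat1, Kcnq1ot1 and H19, and without a pseudocount, where H19 has no ratio, Neat1 and Kcnq1ot1. Without centring, 5 of the 7 were at least 2-fold lower in FuOXP NP, as were 69.8% of all genes, and 0 were at least 2-fold higher, as were 2.34%. The members and their comparison were set with these values known, so the counts are a description. Meg3 and Pvt1 did not pass the filter. H19, Neat1 and Kcnq1ot1 were under 1 TPM in FuOXP NP and passed it through Empty NP alone.

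Malat1 is a single-exon RNA of 6983 bases (ENSMUSG00000092341.3, chr19:5795690-5802672, minus strand). It was at 33.3 TPM in FuOXP NP and 207.6 TPM in Empty NP. Its rank among named genes was 478 in FuOXP NP and 235 in Empty NP. The values rested on 122 and 407 reads, the most of any member with a known length. Malat1 was 6.23-fold lower in FuOXP NP (5.08 to 7.69), an interval wholly beyond the 3.19-fold of the typical gene. Relative to the typical gene it was 1.95-fold lower (1.59 to 2.41). Its centred log2 difference was -1.16.

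Neat1 lies 22036 bases from Malat1 on the same strand of chromosome 19 (ENSMUSG00000092274.3, chr19:5824708-5845478). It was at 0.367 TPM in FuOXP NP and 3.77 TPM in Empty NP, on 4 and 22 reads. It was 10.3-fold lower in FuOXP NP (3.49 to 41.0), or 3.22-fold lower than the typical gene (1.09 to 12.9). The steps of its values fit the whole length of 20771 bases. Reads of its shorter isoform, which ends early and forms no paraspeckle by itself, are therefore divided by the length of the long one. The centred log2 difference was only -0.36, because a pseudocount of 1 TPM exceeds the FuOXP NP value itself. Per length, Malat1 was 90.7 times as abundant as Neat1 in FuOXP NP and 55.0 times in Empty NP.

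Kcnq1ot1 is an unspliced RNA of 93092 annotated bases that silences neighbouring genes on the paternal chromosome (ENSMUSG00000101609.2, chr7:143203458-143296549, minus strand). It is both imprinted and nuclear. It was at 0.316 TPM in FuOXP NP and 3.97 TPM in Empty NP. The annotated length gave 15.4 and 103.7 reads, which are not whole. The ratio of the TPM values equalled that of 7 and 47 reads, and the multiple nearest to the annotated length, 14 and 94 reads, was used. On these it was 12.5-fold lower in FuOXP NP (7.11 to 23.8), or 3.93-fold lower than the typical gene (2.23 to 7.47). Its interval does not reach the typical gene. The protein-coding gene Kcnq1, which it crosses on the other strand with 121 bases of shared exon, was listed at 0 in both libraries.

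Longer genes were lower in general. Among genes with at least 20 reads, the median was 3.84-fold lower in FuOXP NP for the 512 with 10000 exon bases or more, and 2.64-fold lower for the 281 with under 2000 bases. Malat1, with its 6983 bases, falls in the class of 5000 to 10000 bases, whose 1210 genes had a median of 3.54-fold lower. By point value the 3 RNAs lie beyond the upper quartiles of their length classes, 5.29-fold for Malat1 and 5.60-fold for Neat1 and Kcnq1ot1. The intervals of Malat1 and Neat1 hold these quartiles, and that of Kcnq1ot1 lies beyond. The Neat1 interval also holds its class median of 3.84-fold, so no difference of Neat1 from genes of like length was detectable. The part of length in these differences was not tested.

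**Figure D2:**
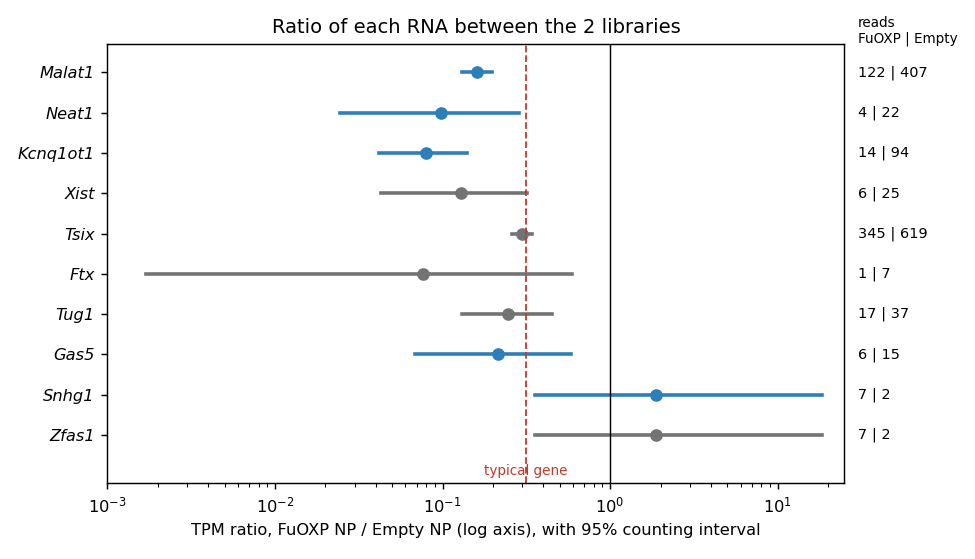
TPM ratio of FuOXP NP over Empty NP (log axis) for members (blue) and other listed lncRNAs (grey), with the 95% counting interval as a bar and the recovered reads at the right. The red dashed line is the typical gene, 3.19-fold lower, and the intervals of Malat1, Neat1 and Kcnq1ot1 lie wholly to its left, while that of Snhg1 lies to its right. Of 3276 genes with at least 20 reads, 16.9% lie wholly to its left and 14.2% wholly to its right.

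Gas5 hosts snoRNAs in its introns and its spliced RNA is degraded during translation by nonsense-mediated decay, a pathway that removes transcripts with early stop codons. It was at 3.04 TPM in FuOXP NP and 14.2 TPM in Empty NP, on 6 and 15 reads (ENSMUSG00000053332.13, chr1:161034422-161038539, plus strand). It was 4.67-fold lower in FuOXP NP (1.71 to 14.7), and the typical gene lies within that range. Its centred log2 difference was -0.47. At this depth no difference of Gas5 from the typical gene was detectable.

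Snhg1 was at 4.50 TPM in FuOXP NP and 2.40 TPM in Empty NP, on 7 and 2 reads (ENSMUSG00000108414.1, chr19:8723475-8726443, plus strand). As deposited it was 1.87-fold higher in FuOXP NP (0.357 to 18.5), an interval that spans no change. Relative to the typical gene it was 5.98-fold higher, with an interval whose lower end, 1.14, lies just above it. The centred log2 difference was 2.13. Per length, Gas5 was at 0.677 of the Snhg1 level in FuOXP NP and at 5.92 times that level in Empty NP. The counting intervals of the fold differences of Gas5 and Snhg1 overlap.

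The annotated exons of both hosts, taken over all isoforms, also cover snoRNAs, 10 in Gas5 and 8 in Snhg1. For Snhg1 they merge into 1 block over the whole gene, so reads from its introns count towards its value. Of the listed snoRNAs, Snord47 of Gas5 and Snord22 of Snhg1 were in the table and both were listed at 0 in each library.

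H19 is an imprinted RNA expressed from the maternal copy, abundant in the embryo and, in adults, mainly in skeletal muscle. It was listed at 0 in FuOXP NP and at 7.51 TPM in Empty NP, on about 5 reads (ENSMUSG00000000031.16, chr7:142575529-142578143, minus strand). A floor of 3 reads in FuOXP NP would be 2.33 TPM. Set against that floor H19 was 3.23-fold lower, beside 3.19-fold for the typical gene. This value takes no account of the counting error of the 5 reads in Empty NP, so it is not a limit. No difference of H19 from the typical gene was detectable. Its centred log2 difference of -1.65 depends on the pseudocount. Skeletal muscle markers moved with it: 14 of 15 were listed at 0 in FuOXP NP and 2 of 15 in Empty NP, and they summed to 0.317 TPM in FuOXP NP and 131 TPM in Empty NP. Their part in the H19 value was not tested.

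Meg3, the maternally expressed RNA of the Dlk1 locus, was listed at 0 in both libraries (ENSMUSG00000021268.17, chr12:109541001-109571726, plus strand). At its 18089 exon bases, 3 reads would be 0.316 TPM in FuOXP NP and 0.591 TPM in Empty NP, so levels below these could not be detected. Pvt1, the RNA beside Myc that is often gained with it in tumours, was at 0.273 TPM in FuOXP NP and 1.02 TPM in Empty NP, on 1 read and 2 reads (ENSMUSG00000097039.8, chr15:62037986-62378096, plus strand). It was 3.73-fold lower (0.194 to 220.3), an interval too wide to give a direction. Myc, which encodes a growth-promoting transcription factor, was at 4.14 TPM in FuOXP NP and 10.3 TPM in Empty NP and lay 0.30 above the median gene.

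Eyelinc18 was at 48431 TPM in FuOXP NP and 47911 TPM in Empty NP, nearly equal as deposited. It ranked 2 among named genes in FuOXP NP and 1 in Empty NP. Relative to the median gene it lay 1.46 log2 units higher, and the ratio without a pseudocount was 3.22 times that of the typical gene. Among all rows it ranked 4 in FuOXP NP and 2 in Empty NP, so it is itself 1 of the 20 most abundant. Those 20 rows held 81.8% of the sum in FuOXP NP and 47.3% in Empty NP, while the share of Eyelinc18 was 4.84% and 4.79%. No gene model of this symbol was used here, so its position, length and reads are not given and no counting interval can be had. In FuOXP NP it stood at 1453 times the level of Malat1 and in Empty NP at 230.8 times.

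By class, the nuclear-retained members Malat1 and Neat1 together had 126 reads in FuOXP NP and 429 in Empty NP, 6.36-fold lower (5.20 to 7.82). Malat1 gave 122 and 407 of these reads, so the pooled value is nearly that of Malat1 alone, 6.23-fold. The hosts Gas5 and Snhg1 together had 13 reads in FuOXP NP and 17 in Empty NP, 2.44-fold lower (1.12 to 5.47). This pool merges Gas5, on 6 and 15 reads, with Snhg1, on 7 and 2, whose point values went opposite ways as deposited. Pooled intervals cover counting error only, not the spread between members. The interval of the hosts holds the typical gene and overlaps that of the nuclear-retained members. On the centred scale the mean of the nuclear-retained members was 1.59 log2 units below that of the hosts, a difference of -1.59. Gas5 alone, at -0.47, also lay above the nuclear-retained mean of -0.76, but it lay below Neat1 at -0.36. The interval of Gas5, 1.71 to 14.7, holds the 6.36-fold of the nuclear-retained members. In point values Snhg1 thus added to the size of the difference and did not set its sign. Against the measured imprinted members H19 and Kcnq1ot1 the nuclear-retained mean was 0.30 higher. That sign turned to -0.55 with a pseudocount of 5 TPM. It turned to -0.33 without a pseudocount and with H19 set at the floor of 3 reads. No order of nuclear-retained and imprinted members is therefore given.

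Among genes that passed the filter, wider lists held the nuclear RNAs on 1 side of the median gene and the hosts on both. Of 14 RNAs listed as nuclear or as abundant lncRNAs, 12 were in the table and 7 passed the filter, and all 7 lay below the median gene, with a median of -0.36 beside 0 over all genes. With a pseudocount of 5 TPM Neat1 and Ftx lay above it, and with 0.1 TPM Tsix did. Neat1, Kcnq1ot1, Xist and Ftx were under 1 TPM in FuOXP NP and passed the filter through Empty NP alone. Jpx, at 0.399 TPM in FuOXP NP and listed at 0 in Empty NP, did not pass. The count of 7 on 1 side is thus partly an outcome of the filter and is a description. It is also not particular to nuclear RNAs. Of the 452 lncRNA genes by GENCODE biotype that passed, 298 lay below the median gene, with a median of -0.43. Xist, which coats the inactive X chromosome, was at 0.639 TPM in FuOXP NP and 4.97 TPM in Empty NP, 7.78-fold lower (3.11 to 23.2). Ftx, from the same locus, was at 0.251 TPM in FuOXP NP and 3.28 TPM in Empty NP on 1 and 7 reads. Tug1, which is found in nucleus and cytoplasm, was at 3.90 TPM in FuOXP NP and 15.8 TPM in Empty NP, 4.06-fold lower (2.23 to 7.69). The intervals of Xist, Ftx and Tug1 all hold the typical gene.

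Of 22 snoRNA host genes, 17 were in the table, 6 of them at 0 in both libraries, and 8 passed the filter. Of these, 4 lay above and 4 below the median gene, with a median of 0.29. Zfas1, another host of snoRNAs, had the same 7 and 2 reads as Snhg1, at 4.56 TPM in FuOXP NP and 2.43 TPM in Empty NP. Snhg5 was at 3.31 TPM in FuOXP NP and 2.06 TPM in Empty NP, on 3 reads and 1 read. Snhg12 and Snhg6 went the other way and were listed at 0 in FuOXP NP, where Empty NP had 13.1 TPM for Snhg12 and 9.32 TPM for Snhg6, on about 9 and 3 reads. The whole list held 26 reads in FuOXP NP and about 39 in Empty NP.

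**Figure D3:**
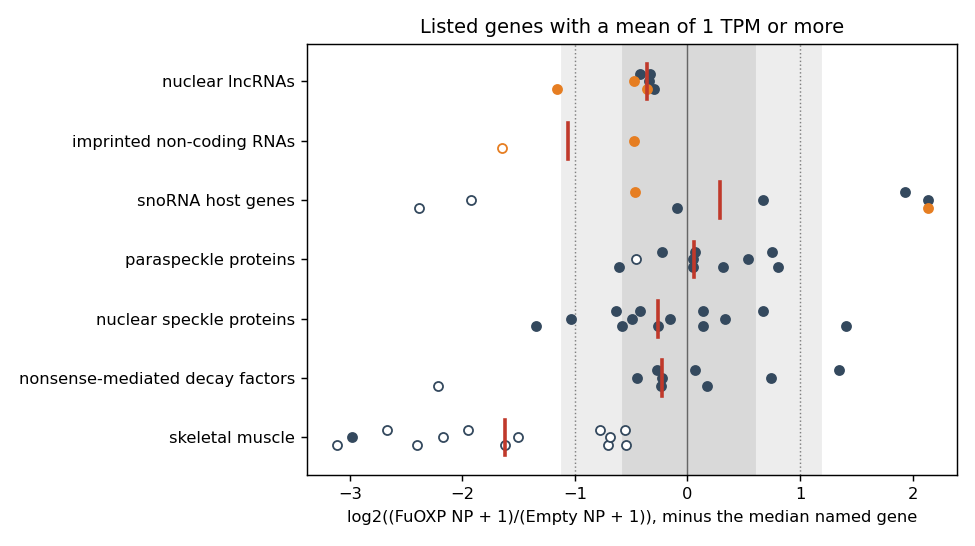
Centred log2 difference, FuOXP NP over Empty NP, of listed genes that passed the 1 TPM filter, with members in orange, open points for genes listed at 0 in either library and a red bar at each median. Grey bands hold the middle 50% and 80% of all 9488 genes, and dotted lines mark 2-fold. All 7 nuclear lncRNAs that passed lie left of 0, while snoRNA hosts lie on both sides. Of all 452 lncRNA genes that passed, 298 lie left of 0. Of the nuclear lncRNAs, Neat1, Kcnq1ot1, Xist and Ftx passed through Empty NP alone.

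Of 9 imprinted non-coding RNAs, 6 were in the table and only H19 and Kcnq1ot1 passed the filter. Mirg, from the Meg3 locus, was at 0.523 TPM on 2 reads in FuOXP NP and listed at 0 in Empty NP, and Airn was listed at 0 in FuOXP NP and at 0.994 TPM on 1 read in Empty NP. Of 10 coding genes at these loci, 7 were at 0 in both libraries, including the growth factor gene Igf2, the Notch-related gene Dlk1 and the cell cycle inhibitor gene Cdkn1c. Rtl1, a retrotransposon-derived gene of the Meg3 locus, was listed at 0 in FuOXP NP and at 8.96 TPM on 16 reads in Empty NP. The tetraspanin gene Cd81 was near equal, at 3.98 TPM in FuOXP NP and 3.71 TPM in Empty NP.

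Genes of the protein partners of the nuclear-retained RNAs were lower as deposited, as was the median gene. All 10 paraspeckle protein genes passed the filter, with 7 above and 3 below it and a median of 0.06, and 0 of them were 2-fold away. That median was -0.19 with a pseudocount of 5 TPM and -0.02 on rescaling without the 20 most abundant rows. Sfpq, an RNA-binding protein needed for paraspeckles, was at 7.24 TPM in FuOXP NP and 33.0 TPM in Empty NP, 4.56-fold lower (2.58 to 8.39). Its partner Nono was at 11.8 TPM in FuOXP NP and 26.9 TPM in Empty NP, 2.28-fold lower (1.33 to 3.94). Of 13 nuclear speckle protein genes, 5 lay above and 8 below, with a median of -0.27. The splicing factor gene Srsf1 was lowest, at 2.67 TPM in FuOXP NP and 24.3 TPM in Empty NP, 9.10-fold lower (4.19 to 22.5), and Srsf3 was near equal, at 7.47 TPM in FuOXP NP and 7.67 TPM in Empty NP. Of 9 measured genes of nonsense-mediated decay, 4 lay above and 5 below, with a median of -0.23. Upf3b, a decay factor bound to exon junctions, was listed at 0 in FuOXP NP and at 11.6 TPM on 13 reads in Empty NP.

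Several genes beside the members were lower as well. Frmd8, 4224 bases from Neat1, was at 2.25 TPM in FuOXP NP and 9.81 TPM in Empty NP, or -0.29. Slc3a2, an amino acid transporter subunit gene 106 bases from Snhg1, was at 1.62 TPM in FuOXP NP and 7.06 TPM in Empty NP, or -0.18, on 3 and 7 reads. Snhg1 and Slc3a2 went opposite ways as deposited in point values only. The interval of Snhg1, 0.357 to 18.5 on 7 and 2 reads, spans no change. Serpinc1, 28559 bases from Gas5, was at 14.1 TPM in FuOXP NP and 59.6 TPM in Empty NP.

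Among other named genes that averaged at least 100 TPM, 332 for Malat1 and 333 for the rest, those nearest to Malat1 in centred difference were Hddc3, Cox20 and Gm16617, within 0.0072 log2 units. Those nearest to Neat1 were Rnf24, Erp29 and Vim, within 0.0089, and those nearest to Gas5 were Chrnb2, Brip1os and Hmga1, within 0.0056. Those nearest to Snhg1 were Rn7s2, Rmrp and Ccdc107, within 0.19. Likeness here is the gap between single differences of 2 libraries, with a pseudocount of 1 TPM. That pseudocount shrinks the differences of low members, so likeness to them is not likeness in TPM ratio. Neat1 was 10.3-fold lower at 0.367 TPM in FuOXP NP and 3.77 TPM in Empty NP. Vim, at 68.8 TPM in FuOXP NP and 241 TPM in Empty NP, had a smaller fold difference.

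Long non-coding genes as a class were lower than protein-coding genes. By GENCODE biotype 452 lncRNA genes and 8791 protein-coding genes passed the filter. The median centred difference was -0.43 for lncRNA genes and 0.01 for protein-coding genes, and the order held in each alternative run. Without a pseudocount, which leaves out genes at 0 in either library, the medians were closer, at -0.23 for 335 lncRNA genes and -0.08 for 7571 protein-coding genes. Of the lncRNA genes 28.5% lay at least 2-fold below the median gene and 9.96% at least 2-fold above it, beside 11.0% and 12.4% of the protein-coding genes. Of the lncRNA genes 23.0% were listed at 0 in FuOXP NP, against 2.88% in Empty NP. For protein-coding genes these shares were 12.3% in FuOXP NP and 1.56% in Empty NP. Together the genes with a GENCODE lncRNA biotype held 0.828% of the FuOXP NP total and 2.57% of the Empty NP total. These shares leave out Eyelinc18, which has no such biotype here. It alone made up 4.84% of the FuOXP NP total and 4.79% of the Empty NP total.

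**Figure D4:**
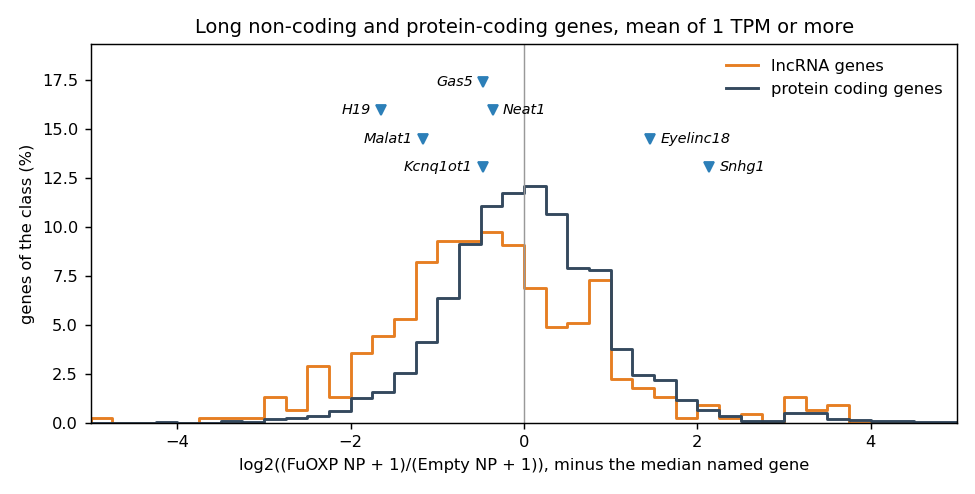
Share of lncRNA genes (orange) and protein-coding genes (dark) by centred log2 difference, FuOXP NP over Empty NP, in bins of 0.25, with the 7 measured members as blue triangles at arbitrary heights. The lncRNA curve lies to the left, with a median of -0.43 against 0.01.

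Many lncRNA genes share exon sequence with a protein-coding gene, and no source used here says whether strand was kept. The 271 that do so had a median centred difference of -0.34 and the 181 that do not had -0.52. Those with an overlap were also more abundant, with a median of 10.5 TPM averaged over the libraries, against 3.77 TPM. Among those with at least 20 reads, the median was 3.81-fold lower for 127 genes with such an overlap and 8.19-fold lower for 27 genes without, beside 3.39-fold for 3101 protein-coding genes. Of these 27, which include Malat1, Neat1 and Gas5, the counting interval lay wholly below the typical gene for 17, spanned it for 10 and lay above it for 0. Over all 3276 genes with at least 20 reads, 16.9% lay wholly below and 14.2% wholly above. This division was made after the values were seen. Malat1 ranked 3 by Empty NP level among the 27, behind 9230105E05Rik, at 39.0 TPM in FuOXP NP and 432 TPM in Empty NP, and Gm1976, at 25.9 TPM in FuOXP NP and 212 TPM in Empty NP. These were 11.1-fold (8.08 to 15.5) and 8.19-fold (5.97 to 11.5) lower.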

How the data were processed

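The authors deposited TPM values, 1 column per group. STAR 2.6.1a, Cufflinks 2.2.1, Cuffdiff and the build GRCm38 are named, without roles, in the submitters' processing notes. Reads were 75-base paired ends, per the labels' protocols. Of 53927 rows, 22240 without a symbol and 26 with a date as symbol were left out of gene comparisons. Adjacent rows with equal values were counted once and the highest row kept per symbol. Lengths and positions came from GENCODE vM21, on the same build.

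Differences were log2((FuOXP NP + 1)/(Empty NP + 1)), which understates changes of low genes, minus the median over genes that averaged at least 1 TPM. TPM times exon length, over the value of 1 read, gave reads. Under 10 reads, 80.8% of values in FuOXP NP and 80.9% in Empty NP were whole within 0.01, as were 5 of the 7 members above 0 with a length. Others were taken from the TPM ratio or rounded. The 20-read and 50-read limits apply to both libraries summed. The steps were tested on simulated data. Members and lists were chosen with earlier results of these data known. Named were the members, up to 4 genes of each list with the largest centred difference and its most abundant gene, flanking genes and the nearest genes in centred difference, and from these the text gives a selection; genes named besides these were chosen after their values were seen. Python 3.11.15, numpy 2.4.6, pandas 2.3.3, scipy 1.17.1 and matplotlib 3.10.9 were used.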

Additional observations from a re-analysis of the deposited data

How the results depend on the processing

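No paired analysis was possible because each group has 1 library. Leaving out a replicate was not possible for the same reason. As deposited, without centring, 5 measured members passed 2-fold in the lower direction and 0 in the higher. With a pseudocount of 5 TPM 1 member, Snhg1, lay 2-fold above and 1, Malat1, below the median gene. With 0.1 TPM 3 lay below, without Malat1. Centred on genes that averaged at least 10 TPM, 1 lay below, H19, and rescaled without the 20 most abundant rows 4 did, Malat1, Neat1, Kcnq1ot1 and H19. Malat1 was also not among the 2 below without a pseudocount. In point values the nuclear-retained minus host difference kept its sign in every alternative run, from -1.14 to -2.34. The counting intervals of these classes overlap. The nuclear-retained minus imprinted difference was 1.93 with a pseudocount of 0.1 TPM, 1.50 on rescaling and -0.55 with a pseudocount of 5 TPM. It was -0.33 without a pseudocount and with H19 set at the floor of 3 reads. That alternative was chosen after seeing the data, like the other ratios without a pseudocount. The cause was not tested. Neat1 turned to 0.023 with a pseudocount of 5 TPM, which exceeds both of its TPM values. Few reads limit Neat1, Gas5, Snhg1, H19, Meg3 and Pvt1, and the reads of Eyelinc18 are unknown.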

Other observations

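Tsix, the antisense partner of Xist, was listed at 108.3 TPM in FuOXP NP and 362.8 TPM in Empty NP, on 345 and 619 reads, above Malat1 in both libraries. It was 3.35-fold lower (2.93 to 3.83), close to the typical gene. Its exons share 1980 bases with those of Xist on the other strand. Zbtb37, a zinc finger gene whose span overlaps that of Gas5 without a shared exon, was at 0.203 TPM in FuOXP NP and 6.81 TPM in Empty NP, on 2 and 36 reads. Of the 30 lncRNA genes with the highest mean TPM, 29 share exon sequence with a protein-coding gene. The highest was Gm15441, at 1505 TPM in FuOXP NP and 2603 TPM in Empty NP, which overlaps Txnip. Which gene such reads came from was not tested.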
